A study of Danio rerio with 6 samples.

Results

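Collagens VI, VIII and X do not form the thick fibrils of collagens I and II but beaded filaments and open networks. Their transcripts were followed in whole zebrafish larvae with and without a mutation in znf469, the counterpart of ZNF469, a human zinc finger gene whose loss causes brittle cornea syndrome. The 8 genes were taken by gene symbol, whatever their level: col6a1, col6a2 and col6a3 of type VI, col8a1a, col8a1b and col8a2 of type VIII, and col10a1a and col10a1b of type X. All 8 were found among the 23876 genes of the deposited table. Wild type larvae were compared with homozygous znf469 mutants, given as a knockout in the sample labels and as a 4del allele in the design text. All were raised in E3 medium at 28.5 °C to 7 days post fertilization. Each group had 3 libraries of polyadenylated RNA, each made from a pool of 50 whole larvae, and no other treatment was given in the labels.

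Type VI collagen is built from an alpha 1, an alpha 2 and an alpha 3 chain that assemble inside the cell and are secreted as tetramers, which join end to end into beaded microfilaments around cells of most connective tissues. In humans, mutations of the 3 genes cause the muscle disorders Bethlem myopathy and Ullrich congenital muscular dystrophy. Types VIII and X are short-chain collagens that end in a C1q-like head and form hexagonal lattices. Type VIII is best known from Descemet's membrane at the back of the cornea and from vessel walls, and type X from the hypertrophic cartilage of growing bones. In zebrafish, col8a1a is expressed in the notochord and its loss gives malformed vertebrae, and col10a1a is made by osteoblasts as well as by cartilage cells.

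Summed over every listed transcript, the libraries held 17023269 to 19156581 reads. At 1 transcript per gene, the totals ran from 8111192 in mutant replicate 3 to 9683579 in wild type replicate 3. The larger sums may hold the same read several times under different isoforms, and are not taken as library sizes. Pools of 1 group were more unlike than counting error allows (chi-square per gene of at least 5.47 in each of 6 pairs), and none was merged with another. Whether pools came from separate clutches is not in the labels, so the p-values speak for the spread among these pools alone. On the second principal component of log2 values, wild type replicate 1 (73.1) and mutant replicate 2 (-63.0) had the extreme scores. The other 4 libraries lay between -27.7 (wild type replicate 3) and 8.58 (mutant replicate 3). The znf469 transcript was at 296, 198 and 206 normalized read counts in wild type and 233, 186 and 209 in mutant pools (log2 fold change -0.13, SE 0.20, adjusted p = 0.786 by limma and Benjamini-Hochberg), a level that does not check the labels. Markers of skeletal muscle (4 of 4) and of cartilage (3 of 3 that were in the table) were detected in all libraries, as whole larvae would hold. The summed level of the muscle markers was 387347 to 486588 normalized read counts in wild type and 248970 to 357286 in the mutant, without overlap. Taken singly, 1 of the 4 markers had groups that did not overlap, with lower values in the mutant, as had 11.8% of all genes tested. The log2 fold changes of the 4 markers were below 0, as were those of 50.1% of all genes tested. Of the 4 markers, 0 were called lower by limma (0 also at an unadjusted p under 0.05), edgeR and limma-voom, 1 by DESeq2, and 2 by limma without the libraries with extreme scores. Over all genes, DESeq2 called 3.06% lower, and limma without those libraries 11.8%. The summed level of the 3 cartilage markers was 1650 to 2609 in wild type and 979 to 1738 in the mutant, with overlap. Limma called 0 of these 3 lower and DESeq2 called 1. The part of muscle in the type VI values was not tested.

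Of the 8 genes, the transcripts of col6a2 and col6a3 fell in the mutant, that of col8a1a rose, and 5 did not pass the threshold of 0.05 (limma with Benjamini-Hochberg adjustment over 22803 genes). Over all genes tested, 2.18% were called lower and 2.31% higher. The libraries of both groups did not overlap for 6 genes, lower in the mutant for col6a2, col6a3, col10a1a and col10a1b and higher for col8a1a and col8a1b. Over all genes tested, the groups did not overlap with lower values in the mutant for 11.8% and with higher values for 11.6%. The median log2 fold change of the 8 genes was -0.91, against -0.0015 over all genes tested. Since whole pools were sequenced, fewer cells that make a collagen and less RNA per cell cannot be told apart in any of these values.

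**Figure D1:**
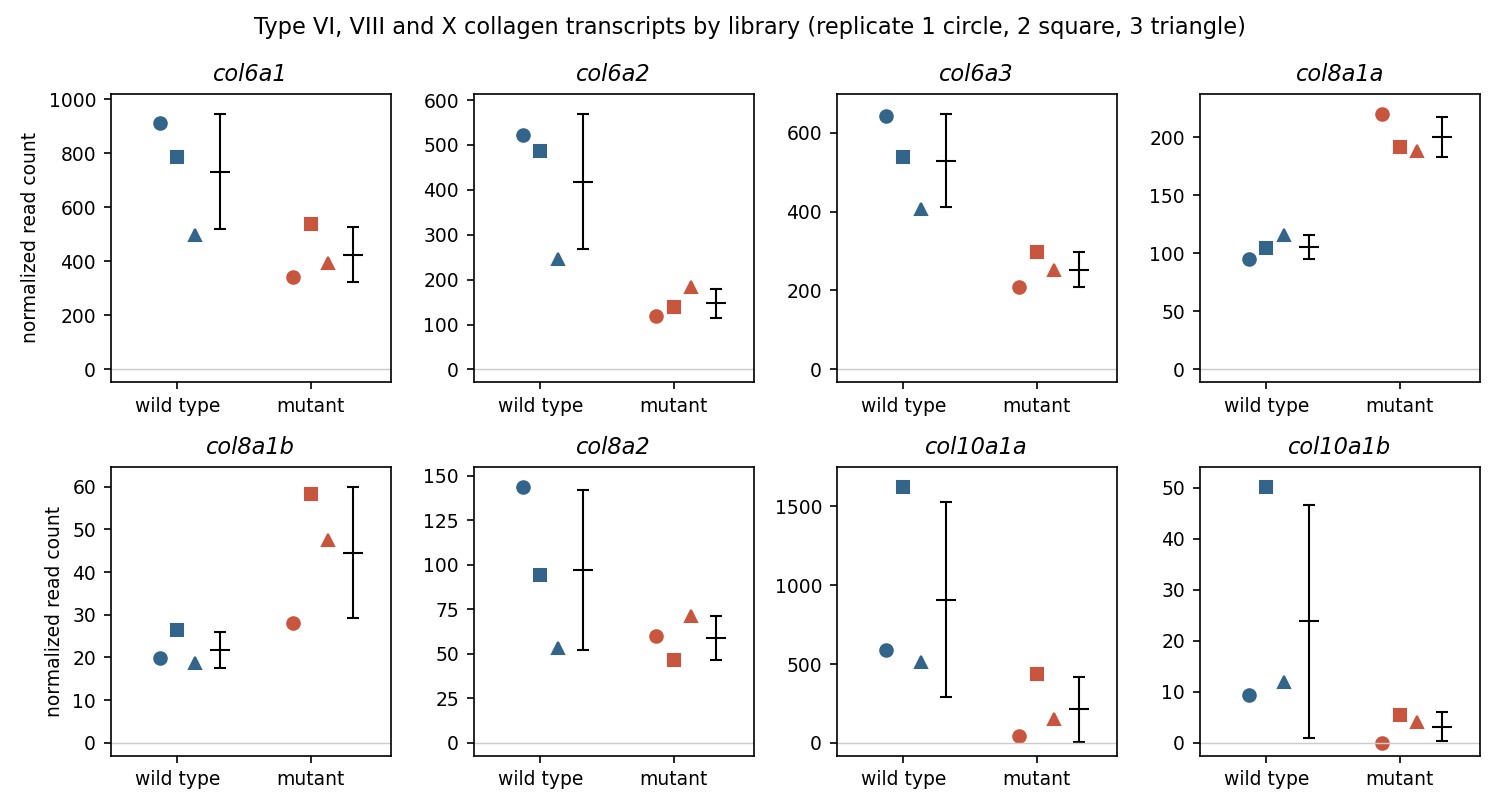
Normalized read counts (vertical axis, linear) of the 8 collagen transcripts in each library, with wild type in blue, mutant in red, and black marks for the mean ± SD of 3 libraries. The groups do not overlap for col6a2, col6a3, col8a1a, col8a1b, col10a1a and col10a1b, and col10a1a ranges from 42.2 to 1620.1 over the 6 libraries. Over all genes tested, groups did not overlap with lower values in the mutant for 11.8% and with higher values for 11.6%.

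All 3 type VI chains had lower means in the mutant, and 2 of them passed the test. The alpha 2 chain gene col6a2 had 523, 486 and 245 normalized read counts in wild type replicates 1 to 3 and 119, 139 and 183 in the mutant. Every mutant library thus lay below every wild type library, and the mutant pools were at 28.4% to 43.9% of the wild type mean. The transcript fell from 418 ± 151 to 147 ± 33.0 (SD, n = 3), with a log2 fold change of -1.45 (SE 0.29, adjusted p = 0.0212 by limma and Benjamini-Hochberg).

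The alpha 3 chain gene col6a3, whose product is the largest chain of the trimer and carries most of the von Willebrand factor A domains of the filament, had 642, 539 and 407 normalized read counts in wild type pools against 210, 297 and 251 in mutant pools. The groups were again apart, and mutant pools were at 39.6% to 56.2% of the wild type mean. The level fell from 529 ± 118 to 253 ± 43.8 (SD, n = 3), with a log2 fold change of -1.05 (SE 0.21, adjusted p = 0.0203 by limma and Benjamini-Hochberg).

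For col6a1, the alpha 1 chain gene, the values were 912, 787 and 497 normalized read counts in wild type pools against 340, 539 and 395 in mutant pools. Here the groups overlapped, since mutant replicate 2 lay above wild type replicate 3. The means were 732 ± 213 and 425 ± 103 (SD, n = 3), and the log2 fold change of -0.77 (SE 0.25, unadjusted 95% interval -1.32 to -0.22) did not pass over all genes (adjusted p = 0.124 by limma and Benjamini-Hochberg). DESeq2 on recovered reads called it (-0.80, adjusted p = 0.0322, with 3.06% of all genes called lower), and edgeR did not (adjusted p = 0.105, with 2.21% called lower).

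The order of the libraries was shared among the chains in wild type, where replicate 1 was highest and replicate 3 lowest for all 3. Wild type replicate 1 was also the highest of its group for 36.4% of all genes tested and 63.9% of 36 collagen genes of other types. In the mutant, col6a1 and col6a3 were highest in replicate 2 and col6a2 in replicate 3. Mutant replicate 2 was the highest of its group for 50.6% of all genes tested and 72.2% of those other collagens. The 3 type VI genes were lowest in mutant replicate 1. In the reference annotation of the assembly GRCz12tu, col6a1 and col6a2 lie on the same chromosome with 2 annotated genes between them.

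More than 1 transcript was listed for col6a2 (4) and col6a3 (4), and each gene was taken at its highest-mean transcript. The other transcripts gave nearly the same values. Those of col6a2 ranged from 512 to 524 in wild type replicate 1 and from 117 to 119 in mutant replicate 1, with log2 fold changes from -1.47 to -1.45 when each transcript was tested by itself. Those of col6a3 ranged from 577 to 642 and from 181 to 210 in the same libraries, with log2 fold changes from -1.09 to -1.03. How reads that match several isoforms were counted is not given. This likeness therefore cannot tell whether the isoforms of either gene changed alike.

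The call of col6a2 was lost on dropping wild type replicate 2, mutant replicate 1 or mutant replicate 2 (limma, adjusted p = 0.119, 0.0812 and 0.0502), and that of col6a3 on dropping wild type replicate 2, mutant replicate 1 or mutant replicate 3 (adjusted p = 0.112, 0.0827 and 0.0835). Without wild type replicate 1 and mutant replicate 2, all 3 chains and both type X genes were called lower (5 of 8 genes, where 11.8% of all genes were), with col6a1 at -0.77 (adjusted p = 0.0133). Dropping libraries for their scores in these same data can raise such calls, so they are not independent support.

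Among the type VIII genes, 1 of 3 passed the test. The alpha 1 chain gene col8a1a had 95.4, 105 and 116 normalized read counts in wild type pools against 220.2, 192 and 189 in mutant pools. The wild type libraries lay close together and below every mutant library. It rose from 105 ± 10.2 to 200.2 ± 17.4 (SD, n = 3), with a log2 fold change of 0.92 (SE 0.19, adjusted p = 0.0218 by limma and Benjamini-Hochberg), and the mutant mean was 1.90 times that of wild type. Of the 8 genes it varied least within groups, with a coefficient of variation of 9.69% in wild type and 8.67% in the mutant, where the median over tested genes with a mean of 50 or more was 15.2% and 17.1%.

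The second alpha 1 chain gene, col8a1b, was at low counts. It had 19.8, 26.5 and 18.8 normalized read counts in wild type pools against 28.1, 58.2 and 47.4 in mutant pools, from 19 to 54 reads a library. All mutant libraries lay above the wild type ones, but mutant replicate 1 was only just above wild type replicate 2. The log2 fold change of 0.96 (SE 0.35, unadjusted 95% interval 0.17 to 1.75) did not pass (adjusted p = 0.177 by limma and Benjamini-Hochberg). A second listed transcript of col8a1b gave 1.02 (adjusted p = 0.183 among all transcripts).

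The alpha 2 chain gene col8a2, whose human counterpart is mutated in an early-onset corneal endothelial dystrophy, had 144, 94.1 and 53.4 normalized read counts in wild type pools against 60.0, 46.3 and 71.1 in mutant pools. The groups overlapped, because wild type replicate 3 fell within the mutant range. With means of 97.0 ± 45.1 and 59.1 ± 12.4 (SD, n = 3), the log2 fold change of -0.62 (SE 0.35, unadjusted 95% interval -1.40 to 0.17) did not pass (adjusted p = 0.404 by limma and Benjamini-Hochberg). The interval holds both no change and a fall of more than 1 on the log2 scale, so a difference was not detectable with these pools. Its wild type libraries followed the same order as those of the type VI genes.

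The call of col8a1a was lost on dropping either wild type replicate 2 or 3, or else mutant replicate 1 or 3 (limma, adjusted p = 0.122, 0.0528, 0.106 and 0.0908), although its log2 fold change stayed between 0.85 and 0.99 in the 6 fits with 1 library left out. Without both libraries with extreme scores, col8a1a was at 0.88 (limma, adjusted p = 0.00408), while col8a2 was at -0.12 (adjusted p = 0.801). In that fit, where the choice of libraries can raise calls, 11.8% of all genes were called higher.

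Type X collagen had the largest fold changes between means and, relative to the mean, the widest spread within groups. The gene col10a1a had 589, 1620.1 and 512 normalized read counts in wild type pools against 42.2, 440 and 155 in mutant pools. Wild type replicate 2 was 3.17 times wild type replicate 3, mutant replicate 2 was 10.4 times mutant replicate 1, and mutant replicate 2 came close to the lower wild type libraries without reaching them. The means were 907 ± 619 and 212 ± 205 (SD, n = 3). The log2 fold change was -2.46 (SE 0.71, unadjusted 95% interval -4.03 to -0.88), which did not pass (adjusted p = 0.0850 by limma and Benjamini-Hochberg). DESeq2 (-2.13, adjusted p = 0.211) and edgeR (-2.12, adjusted p = 0.120) did not call it either. With 1 library left out, it passed in 1 of 6 limma fits, that without mutant replicate 2 (-3.27, adjusted p = 0.0208). In the others, the adjusted p was from 0.0706 to 0.317. Over the 6 fits that each lack 1 library, the log2 fold change ranged from -3.27 to -1.59, the latter without mutant replicate 1.

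The paralogue col10a1b was near the limit of detection, with 9.44, 50.0 and 11.9 normalized read counts in wild type (10, 51 and 12 reads) and 0, 5.39 and 4.12 in the mutant (0, 5 and 4 reads). In mutant replicate 1 the 0 reads allow up to 3, or a normalized read count of up to 2.81, from counting error alone. The highest library was again wild type replicate 2, as for col10a1a. The log2 fold change was -2.57 (SE 0.81, adjusted p = 0.112 by limma and Benjamini-Hochberg), on a scale that understates the change of so low a gene. DESeq2 called it lower (-2.94, adjusted p = 0.0274) and edgeR did not (-2.90, adjusted p = 0.109).

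In the authors' deposited table, for which no test is named in the sources used here, 5 of the 8 genes had a q-value under 0.05, against 4.28% of genes lower and 4.7% higher by the same transcripts. These were col6a1 (log2 fold change -0.79, q = 0.00973), col6a2 (-1.51, q = 1.78e-06), col6a3 (-1.07, q = 5.35e-06), col8a1a (0.93, q = 0.000144) and col10a1b (-2.94, q = 0.0102) in the authors' deposited table. The genes col8a1b (1.03, q = 0.0998), col8a2 (-0.71, q = 0.266) and col10a1a (-2.10, q = 0.218) had higher q-values in the authors' deposited table. Both analyses gave the same sign for each of the 8 genes.

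**Figure D2:**
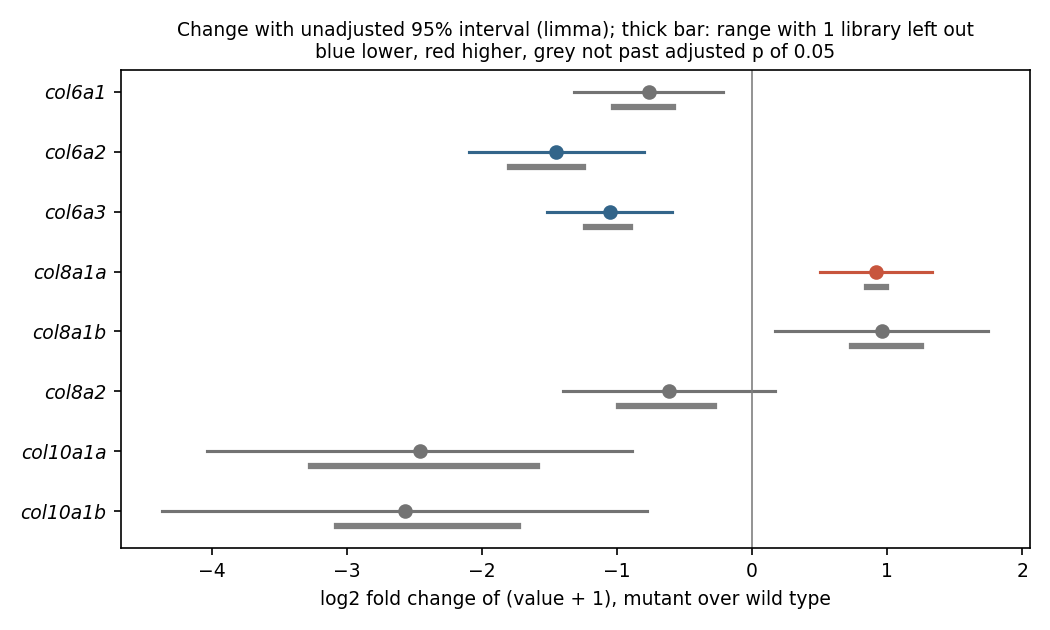
Log2 fold change of (value + 1), mutant over wild type (horizontal axis), for each gene, with points and thin lines for the limma estimate and its unadjusted 95% interval and thick bars for the range over 6 fits with 1 library left out. The estimates run from -2.57 for col10a1b to 0.96 for col8a1b, and the interval of col8a2 spans 0.

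Ratios of 2 transcripts within a library do not depend on how libraries were scaled. They were compared between groups with an exact permutation test (two-sided), for which the smallest p of 3 against 3 libraries is 0.10, so none of the 13 ratios could pass. The ratios were of normalized read counts without correction for transcript length, and only their difference between groups is given.

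Within type VI, the ratio of col6a2 to col6a1 was lower in each mutant library than in each wild type library, by 0.68 on the log2 scale (-0.84 ± 0.16 in wild type and -1.52 ± 0.42 in the mutant, SD, n = 3, exact permutation p = 0.10, adjusted p = 0.144 over 13 ratios). The ratio of col6a3 to col6a1 differed in the same way by 0.29 (-0.45 ± 0.14 and -0.73 ± 0.11, exact permutation p = 0.10, n = 3). The difference between groups was thus smallest for col6a1 among the chains of the trimer, in a design where this test could not pass.

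Within type VIII, the ratio of col8a1a to col8a2 was higher in every mutant library, by 1.54 on the log2 scale (0.22 ± 0.85 and 1.76 ± 0.33, SD, n = 3, exact permutation p = 0.10). Between the paralogues col8a1a and col8a1b it differed by -0.04, with overlapping groups (exact permutation p = 1.0, n = 3). Between col10a1a and col10a1b the difference was 0.11, also with overlap (exact permutation p = 0.80, n = 3), and it turned to -1.05 with a pseudocount of 8, which weighs on the few reads of col10a1b.

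Against col1a1a, the type I collagen gene that fell by 3.09 on the log2 scale (adjusted p = 0.00181 by limma and Benjamini-Hochberg), the type VI and VIII chains had higher ratios in the mutant libraries without overlap, and so had 95.9% of the tested genes other than col1a1a. The differences were 2.33 for col6a1, 1.64 for col6a2, 2.04 for col6a3, 4.01 for col8a1a, 4.05 for col8a1b and 2.48 for col8a2 (exact permutation p = 0.10 each, n = 3). For col10a1a and col10a1b the differences were 0.63 and 0.52, and the groups overlapped (exact permutation p = 0.20 and 0.50, n = 3). Each difference includes the fall of col1a1a, which a gene at equal levels in both groups would show in full.

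**Figure D3:**
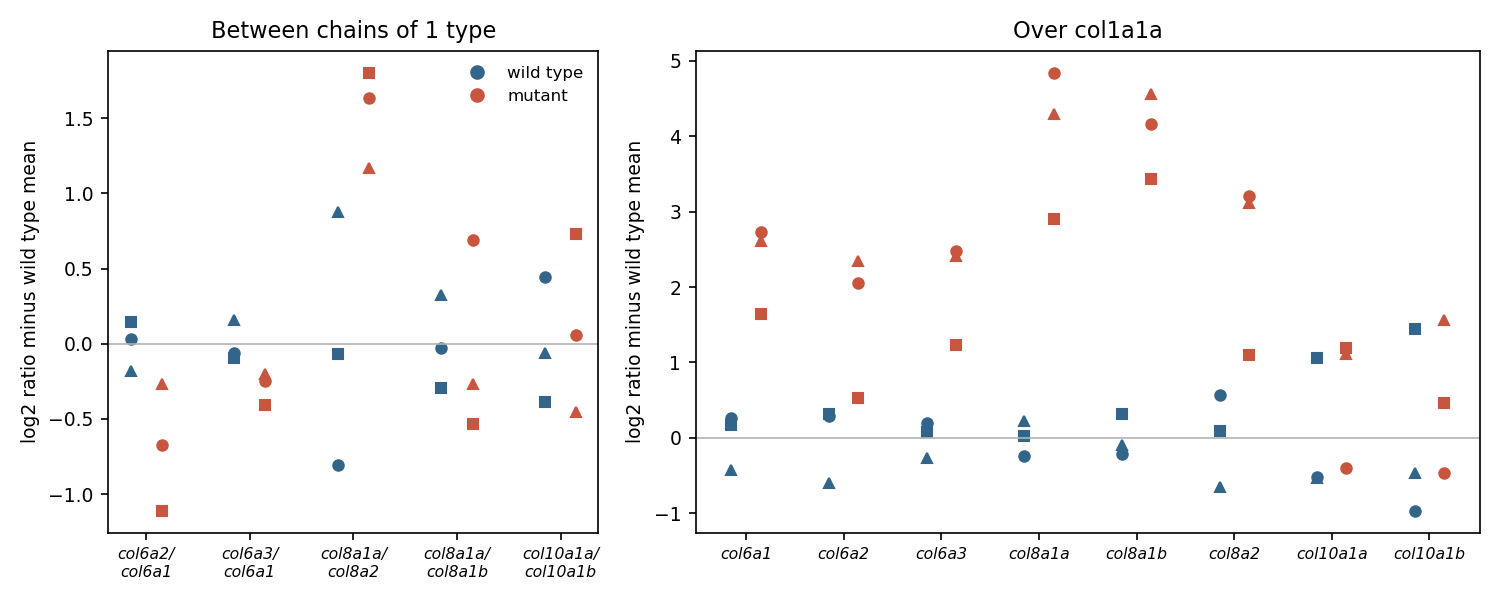
Log2 ratio of transcripts within each library minus its wild type mean (vertical axes), between chains of 1 collagen type (left) and of each chain over col1a1a (right), with wild type in blue and mutant in red. Mutant libraries lie above all wild type libraries over col1a1a for types VI and VIII, and mix with them for type X, while 95.9% of the tested genes other than col1a1a also lie above without overlap.

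Other collagens gave the frame for these values. Of 36 collagen genes of other types, 22 fell, none (0) rose and 14 did not pass, with a median log2 fold change of -1.42 (limma, 2.18% lower and 2.31% higher over all genes). At an unadjusted p under 0.05 limma also gave 0 higher, and so did DESeq2, edgeR and limma-voom after adjustment. The 4 with the smallest p were the fibrillar chains col5a3b (-3.42), col2a1b (-2.60), col11a2 (-3.19) and col11a1a (-3.04), and the main cartilage collagen gene col2a1a was at -3.22. These 5 and col1a1a were called with each library left out in turn (adjusted p of at most 0.0122). Among the genes most related to type VI, col28a2a of type XXVIII collagen, which shares von Willebrand factor A domains with type VI, fell by 1.25 (SE 0.31, adjusted p = 0.0492). It was the 1 of 5 relatives that passed, and its call held only in the fit without mutant replicate 2 (in the other 5, adjusted p from 0.0873 to 0.160). The alpha 4 chain gene col6a4a had 563, 398 and 275 normalized read counts in wild type pools against 184, 291 and 220 in mutant pools (limma, -0.80, adjusted p = 0.137), with the same order of libraries in both groups as col6a1.

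Most genes of proteins that bind type VI collagen or act as collagen receptors did not pass the test. Of 27 such genes, 3 fell, 1 rose and 23 did not pass, with a median log2 fold change of -0.40 (limma, 2.18% lower and 2.31% higher over all genes). The matrilin gene matn4, of a family of adaptor proteins that link type VI filaments to other matrix, fell from a normalized read count of 1717 ± 201 to 481 ± 130.2 (SD, n = 3; log2 fold change -1.86, SE 0.20, adjusted p = 0.000974 by limma and Benjamini-Hochberg). Decorin (dcn), a small proteoglycan that binds type VI and fibrillar collagen, fell by 1.26 (SE 0.20, adjusted p = 0.00781), and fibromodulin (fmoda), a relative of it, by 0.99 (SE 0.22, adjusted p = 0.0334). The integrin gene itga1, whose mammalian product pairs with the beta 1 chain as a collagen receptor, rose from 97.1 ± 17.4 to 176 ± 19.9 (0.86, SE 0.21, adjusted p = 0.0475). In edgeR and limma-voom, itga1 was not called. The call of matn4 was kept with each library left out. The dcn call was lost when wild type replicate 2 was dropped (limma, adjusted p = 0.0519), and those of fmoda and itga1 when any library but wild type replicate 1 and mutant replicate 2 was (adjusted p from 0.0831 to 0.168 and from 0.150 to 0.226).

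Genes of hypertrophic cartilage and bone, the tissues of type X collagen, were set beside col10a1a. Among 25 tested genes 2 fell, 0 rose and 23 missed the threshold in limma (2.18% lower and 2.31% higher over all genes). The median of the list was -0.23. At an unadjusted p under 0.05 limma gave 1 higher gene, and DESeq2, edgeR and limma-voom gave 0 after adjustment. Without wild type replicate 1 and mutant replicate 2, limma called 8 genes of the list lower and 2 higher (11.8% of all genes in each direction). Those that fell were sparc (osteonectin, a collagen-binding protein of bone and other matrix; -1.34, SE 0.26, adjusted p = 0.0176 by limma and Benjamini-Hochberg) and ucmab (a Gla protein of cartilage; -1.53, SE 0.28, adjusted p = 0.0154). Both calls were lost on dropping any 1 library except wild type replicate 1 and mutant replicate 2 (adjusted p from 0.0549 to 0.0913). The osteoblast transcription factor gene sp7 had 17.0, 27.5 and 20.8 normalized read counts in wild type pools against 8.43, 11.9 and 8.25 in mutant pools (-1.11, adjusted p = 0.146), and was named here because it marks the cells that make bone. Like col10a1a, it was highest in wild type replicate 2, and so within wild type were 15 of the 25 genes (60.0%, against 25.1% of all genes tested). Of the 25 log2 fold changes, 16 were below 0 and 9 above. Among those above were runx2b and alpl (limma, 0.43 and 0.13, adjusted p = 0.538 and 0.710). Among those below were panx3, at 1 to 18 reads a library, and entpd5a (limma, -1.91 and -1.35, adjusted p = 0.0692 and 0.0728). The groups did not overlap for 5 of the 25 genes with lower values in the mutant and for 2 with higher values. Over all genes tested, these shares were 11.8% and 11.6%. The summed level of the list was 7065 to 8101 in wild type and 4839 to 5908 in mutant libraries. Most of this difference lay in sparc, whose mean went from 3613 ± 127 to 1517 ± 666 (SD, n = 3). The sums therefore do not show a fall of the list as a whole. Of the members of the list, runx2a was at 0 in 2 libraries of the mutant, pth1ra at 0 in wild type replicate 3 and bglap, too low to be tested, at 0 in 3 libraries. The part of these tissues in the type X result was not tested.

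Markers of the cells that could hold type VI and VIII transcripts were also set beside them. Of 21 fibroblast and tendon genes, 2 fell, none (0) rose and 19 did not pass (median -0.45, summed level 5245 to 7892 in wild type and 3314 to 3979 in the mutant, none (0) at 0 in any library). Over all genes tested, limma called 2.18% lower and 2.31% higher. Of the 21 log2 fold changes, 19 were below 0 and 2 above, where 50.1% of all genes tested were below 0. The groups did not overlap for 6 of the 21 genes with lower values in the mutant and for 1 with higher values. Over all genes tested, these shares were 11.8% and 11.6%. The tendon membrane protein gene tnmd fell by 1.85 (SE 0.24, adjusted p = 0.00265 by limma and Benjamini-Hochberg) and the matricellular gene postnb by 1.74 (SE 0.21, adjusted p = 0.00179), both with each library left out. Of 11 genes of the notochord and its sheath, 1 fell, none (0) rose and 10 did not pass (median -0.33, with 9 log2 fold changes below 0 and 2 above, summed level 3063 to 3382 and 2314 to 2624, with noto at 0 in 2 libraries). The one that fell was the laminin chain gene lamb1a (-0.74, SE 0.18, adjusted p = 0.0433), whose call held only in the fit without mutant replicate 2 (in the other 5, adjusted p from 0.0501 to 0.231). In the notochord list, the groups did not overlap for 4 of 11 genes with lower values in the mutant and for 0 with higher values.

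In the list of vessel and cornea genes, 2 of 15 fell, none (0) rose and 13 did not pass in limma. Over all genes, 2.18% were called lower and 2.31% higher. The list had a median of -0.26 and a summed level of 4704 to 5091 in wild type and 3416 to 5048 in the mutant, none (0) at 0 in any library. Those that fell were the corneal proteoglycan genes lum (limma, -1.50, SE 0.28, adjusted p = 0.0169) and kera (-1.01, SE 0.19, adjusted p = 0.0171). Leaving out wild type replicate 3 or mutant replicate 3 ended both calls, and leaving out wild type replicate 2 or mutant replicate 1 that of lum (adjusted p from 0.0519 to 0.0914). At an unadjusted p under 0.05, limma gave 1 higher gene among the fibroblast and tendon genes, 0 in the notochord list and 0 in the vessel and cornea list, and DESeq2, edgeR and limma-voom gave 0 in all 3 lists after adjustment. Without wild type replicate 1 and mutant replicate 2, limma called 6 lower and 0 higher among the fibroblast and tendon genes, 4 and 0 in the notochord list, and 8 and 2 in the vessel and cornea list. In that fit, 11.8% of all genes were called in each direction. For each of these lists, its part in the levels of the type VI and VIII genes was not tested.

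Most genes that fold and export collagen did not pass. Of 20 tested, 2 fell, 1 rose and 17 did not pass, with a median of -0.21 (limma, 2.18% lower and 2.31% higher over all genes). The prolyl 3-hydroxylase gene p3h1 fell by 1.42 (SE 0.32, Benjamini-Hochberg adjusted p = 0.0359) and the collagen chaperone gene serpinh1a by 0.87 (SE 0.21, adjusted p = 0.0415). Its paralogue serpinh1b did not pass (limma, -1.56, adjusted p = 0.229). The gene sec24d, of the vesicle coat that carries collagen out of the endoplasmic reticulum, rose from 275 ± 73.7 to 535 ± 27.8 normalized read counts (SD, n = 3; 0.99, SE 0.21, adjusted p = 0.0250). These 3 calls were lost on dropping any 1 library except wild type replicate 1 and mutant replicate 2, and those of p3h1 and serpinh1a also on dropping wild type replicate 1 (limma, adjusted p from 0.0647 to 0.187).

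**Figure D4:**
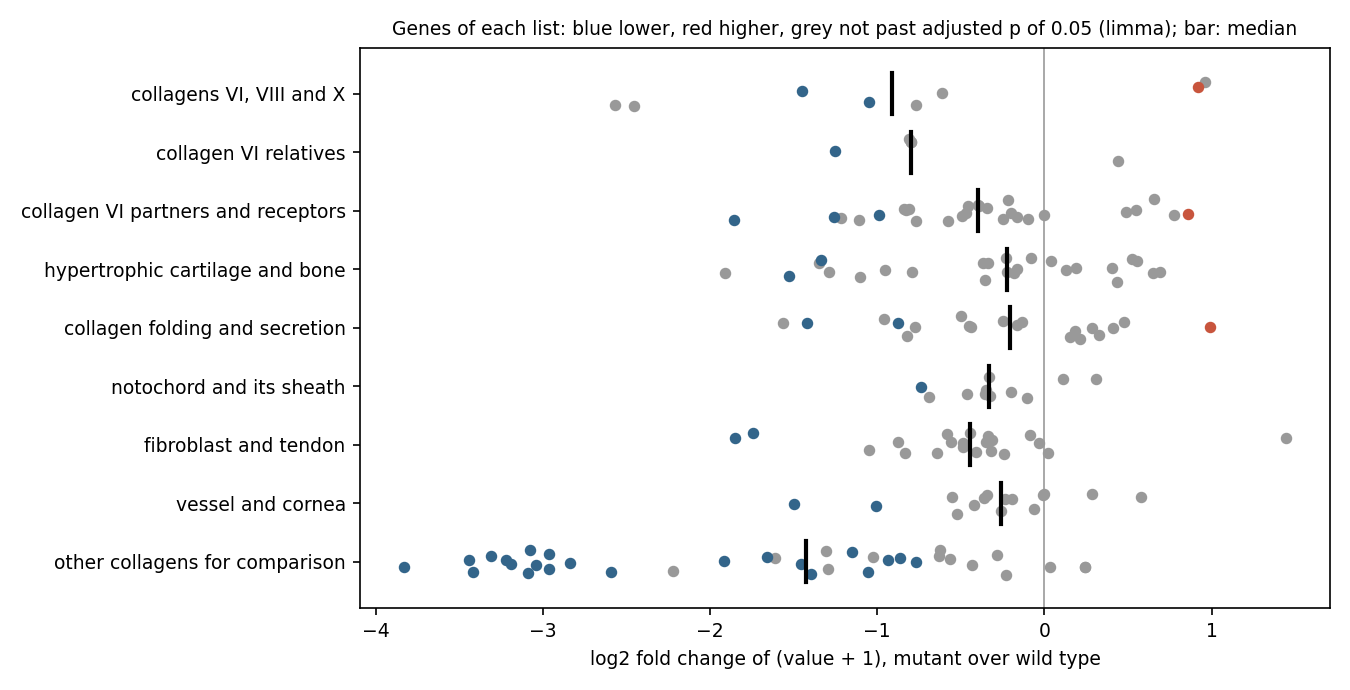
Log2 fold change of (value + 1), mutant over wild type (horizontal axis), of each tested gene in 9 lists, with blue for genes called lower, red for called higher, grey for the rest and a bar at the median of each list. The 8 genes of types VI, VIII and X spread from -2.57 to 0.96, with 6 of them below 0. Of the 36 other collagens, 33 lie below 0, against 50.1% of all genes tested.

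The genes whose levels ran most like those of a leading chain were taken from 13922 tested genes with a mean of 50 or more, by Pearson correlation of log2 values over the 6 libraries. This likeness includes the difference between groups, and with 6 points many genes reach a high value by their group means alone. For col6a1 they were si:ch211-113d11.6, si:dkeyp-94b4.1 and the carbonic anhydrase gene ca4b (r = 0.995, 0.994 and 0.994), above col6a3 (0.957) and col6a2 (0.900). For col8a1a they were the ubiquitin ligase gene wwp2, si:dkey-54n8.4 and the photoreceptor gene nxnl1 (r = 0.996, 0.994 and 0.992). For col10a1a they were the calpain gene capn2b, sytl4 and eml3 (r = 0.997, 0.994 and 0.994), with col6a1 and col6a3 at 0.850. None of the closest genes was thus a collagen.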

How the data were processed

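Polyadenylated RNA was sequenced from 3 wild type and 3 znf469 mutant pools as paired 150 bp reads of fragments of about 200 bp, per the labels' protocols. The deposited table gives 1 signal value per RefSeq transcript and library, 45602 transcripts in all, with no unit named. Within each library the deposited values were whole multiples of the smallest positive one to within 0.001 (100% of them), so they were read as counts divided by 1 factor per library. This is printed as the normalized read count. The value of 1 read was 0.937 to 1.08, and in wild type replicate 3 (0.990) rounding is harder to exclude. Per the submitters' processing notes, GRCz11 was the build. Not given in the sources used here are the aligner, the counter, the strand setting, and how reads that match both of a pair of paralogues (col8a1a and col8a1b, col10a1a and col10a1b) or several isoforms were counted. The authors also deposited, per the file headers, their own log2 fold change with its p-value and q-value. For 99.8% of transcripts its sign was that of mutant over wild type.

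Each gene was represented by its transcript with the highest mean. The main test was limma 3.58.1 with an intensity trend on log2(value + 1). It took the 22803 genes that reached a value of 1 in 3 or more libraries, and p-values were adjusted over all of them by Benjamini-Hochberg, with a threshold of 0.05. On this scale the change of low genes is understated. Other tests used recovered reads with edgeR 4.0.16, DESeq2 1.42.0 and limma-voom. The 8 genes, the lists (169 of 177 symbols found) and the settings were chosen with earlier results of these data known. The text names all 8 genes, the 4 genes of each list with the smallest p among those that passed, col1a1a, col2a1a, and the 3 genes most like each of col6a1, col8a1a and col10a1a. The genes col6a4a, sp7, runx2b, alpl, panx3, entpd5a, spp1, phex, dlx5a, serpinh1b and matn1 and members at 0 were named after their values were seen. No sequences were used here.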

Additional observations from a re-analysis of the deposited data

How the results depend on the processing

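The 8 genes kept the sign of their log2 fold change in all 151 other fits made of them. The number called lower (2) was 4 with DESeq2 and 4 with the replicate number as a block. It was 5 without both libraries with extreme scores and 0 to 2 with 1 library left out. The number called higher (1) was 0 to 1 with 1 library left out. Dropping libraries for extreme scores can narrow the groups and raise counts of calls, so these counts are not independent support. Over all genes, 497 were lower and 526 higher. These counts were 882 and 791 with every transcript by itself, and 2592 and 2599 without both libraries with extreme scores. With 1 library left out they were 99 to 772 lower and 152 to 872 higher. Filters, pseudocounts, summed transcripts, edgeR under 3 scalings and limma-voom left them within 1.5 times.

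With the block, col10a1a and col10a1b passed (limma, adjusted p = 0.00162 and 0.0232). Same-numbered libraries did not all deviate together (correlations of 0.14, 0.13 and -0.26), so the numbers are not taken as pairs. The ratio of col8a1a to col8a1b turned to 0.090 with a pseudocount of 8 and ranged from -0.40 to 0.21 with 1 library left out. That of col10a1a to col10a1b turned to -1.05 with a pseudocount of 8 and ranged from -0.20 to 0.39, and that of col10a1b to col1a1a (0.52) was 1.77 with a pseudocount of 8 and ranged from -0.00010 to 1.24. The causes were not tested. In the lists, 144 of 192 counts of calls were within 1.5 times, among them counts of 0 that stayed at 0. In several lists the number called lower went to 0 with 1 library left out. Depth limits col10a1b (0 to 51 reads) and col8a1b (19 to 54 reads). The fit of col10a1b with a value of 10 or more in 3 libraries was not made, since it failed that filter.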

Other observations

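Several genes of the lists were, like col10a1a, highest in wild type replicate 2 and lowest in mutant replicate 1 within their groups. Among them were spp1, phex and dlx5a (limma, log2 fold change -0.35, -0.23 and -0.18, adjusted p = 0.757, 0.674 and 0.795). With the same order, runx2b was above 0 (limma, 0.43, adjusted p = 0.538). The 3 genes given below had larger falls and were chosen after their values were seen. The share of all genes with this order is not given. The collagen chaperone gene serpinh1b, a paralogue of serpinh1a, had 109, 212 and 139 normalized read counts in wild type pools against 20.6, 178 and 31.95 in mutant pools (limma, log2 fold change -1.56, adjusted p = 0.229). The minor fibrillar chain gene col5a2b had 55.7, 149 and 31.7 in wild type pools against 1.87, 43.1 and 20.6 in mutant pools (-2.22, adjusted p = 0.215). The proteoglycan gene bgna had 25.5, 78.5 and 75.2 in wild type pools against 13.1, 43.1 and 24.7 in mutant pools (-1.11, adjusted p = 0.296). Its wild type replicates 2 and 3 were nearly equal, unlike those of col10a1a. In each of these 3 genes, mutant replicate 2 was the highest of its group, and none passed the test. Over all genes tested, mutant replicate 2 was the highest of its group for 50.6% and wild type replicate 2 for 25.1%.

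The matrilin genes matn3a and matn3b did not follow matn4, while matn1 had a lower mean in the mutant without passing. The gene matn1 had 997.2, 1770 and 1110 normalized read counts in wild type pools against 438, 996.7 and 358 in mutant pools (limma, -1.21, adjusted p = 0.0867). Wild type replicate 1 thus lay only just above mutant replicate 2. The gene matn3a had 570, 995 and 1377 normalized read counts in wild type pools against 1350, 1598 and 1126 in mutant pools (limma, 0.54, adjusted p = 0.352). For matn3b the values were 85.0, 166 and 193 in wild type pools against 216, 249 and 198 in mutant pools, so that its groups did not overlap (0.65, adjusted p = 0.262, where 11.6% of all genes tested did not overlap with higher values in the mutant).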
